A study of Rattus norvegicus with 10 samples.

Results

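The third complementarity-determining region (CDR3) of the immunoglobulin heavy chain was analysed for productive sequences in which it holds 2 or more cysteines. Members were chosen from the deposited annotation alone: a line called productive was kept when its CDR3, read as amino acids between the conserved cysteine and tryptophan of the variable domain, held at least 2 cysteine letters. Of 215200 distinct productive CDR3 over 10 animals, 734 met this rule. Counted within each animal, the unit used below, they made 735 of 222901 unique CDR3, or 0.330%, and 1672 of 1615896 productive reads, or 0.103%. For reference, 10433 unique CDR3 held exactly 1 cysteine and 211733 held none. Of the 735 CDR3, 665 had 2 cysteines, 62 had 3 and 8 had 4.

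The CDR3 is made where a V, a D and a J gene segment are joined, with bases trimmed and added at the joints, and it is the most diverse loop of the antibody. Every variable domain has a conserved pair of cysteines in its frameworks that form the bond of the immunoglobulin fold. A further pair inside the CDR3 can form a disulfide bond within the loop, and such loops are known from the long CDR3 of chickens, camels and cattle and from some D segments of humans. A single cysteine has no partner within the loop.

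Spleen cells came from 10 Wistar rats, 5 of them given recombinant human HuD, a neuronal RNA-binding protein that is an antigen in paraneoplastic disease, and 5 given keyhole limpet hemocyanin modified with dinitrophenyl (DNP). Both groups received a first injection in complete Freund's adjuvant and 3 boosts in incomplete adjuvant, so that neither represents an unimmunized state. Each animal gave 1 library of heavy chain variable domains, all sequenced in the same MiSeq run, with 60647 to 259834 productive reads. A read is a sequence collapsed from all copies that carried the same tag, and the copies are the sequenced PCR products behind it. The tag combined random bases of the primer with a section of the CDR3 bases themselves, because the random bases alone had proved too short. The part of this tag in the copies per read was not tested. The samples are whole spleen suspensions, so more cells of a clone and more transcript per cell cannot be told apart.

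The most abundant CDR3 of 4 animals are shown first, because they carry many of the reads and show how differently the cysteines are placed. Amino acids are given in single letters from the first to the last residue of the CDR3.
DNP5: ARSTDCGCNWDY
HuD1: ARHGIYNNYCCFSY
HuD4: ARHGYTRYCFDC
HuD5: ARAPCTTYICWFPY
They had 404, 2, 190 and 17 reads in this order, and 1, 0, 2 and 4 residues between their cysteines. In the other 6 animals the most abundant CDR3 was 15 to 21 residues long. It had 3, 2, 77 and 29 reads in DNP1 to DNP4, 2 in HuD2 and 4 in HuD3. Abundance thus differed by over 100 times between animals, and in DNP2, HuD1 and HuD2 no CDR3 of this kind had more than 2 reads.

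Before the comparisons, the libraries DNP2 and HuD2 have to be set apart. They held 339 of the 735 CDR3 (46.1%), and their reads rested on many sequenced copies. Reads in CDR3 with 2 or more cysteines had 16.3 copies each in DNP2 and 9.90 in HuD2, against 1.37 and 1.40 for CDR3 without cysteine in the same libraries. In the remaining DNP animals, numbers 1, 3, 4 and 5, this value was 1.69, 1.01, 4.72 and 1.43, and in HuD animals 1, 3, 4 and 5 it was 3.70, 2.92, 3.37 and 3.09. Over the 10 animals the mean was 4.81 ± 4.76 copies per read with 2 or more cysteines and 1.55 ± 0.196 with none (SD, n = 10). It was higher in 7 of 10 animals, by 3.26 copies (exact sign-flip permutation test, two-sided, p = 0.0156). Without DNP2 and HuD2 the difference was 1.15 copies (exact sign-flip permutation, p = 0.0625). Results are therefore given below without these libraries, or from reads with a single copy, where this was run and ended a call. Not every comparison was repeated in this way. Residue content, copies behind single reads and D segment use at equal length were compared on all animals and all reads only. The same holds for D segment use against exactly 1 cysteine. The part of the copies in any result was not tested.

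The share of CDR3 with 2 or more cysteines varied between animals more than between the immunogens. Among unique CDR3 it was 0.0836%, 0.592%, 0.350%, 0.274% and 0.413% for DNP1 to DNP5. For HuD1 to HuD5 it was 0.150%, 0.528%, 0.142%, 0.387% and 0.188%. The groups overlapped nearly throughout, with means of 0.342% ± 0.186 after DNP and 0.279% ± 0.171 after HuD (SD, n = 5 each). The difference of -0.0632 percentage points (HuD minus DNP) was within the spread between animals (exact permutation test over animals, two-sided, p = 0.595). When only reads with 1 copy were used, a setting chosen after seeing the data, the difference was -0.122 points (exact permutation, p = 0.0397), and with reads of at least 2 copies it was 0.148 points (exact permutation, p = 0.825).

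**Figure D1:**
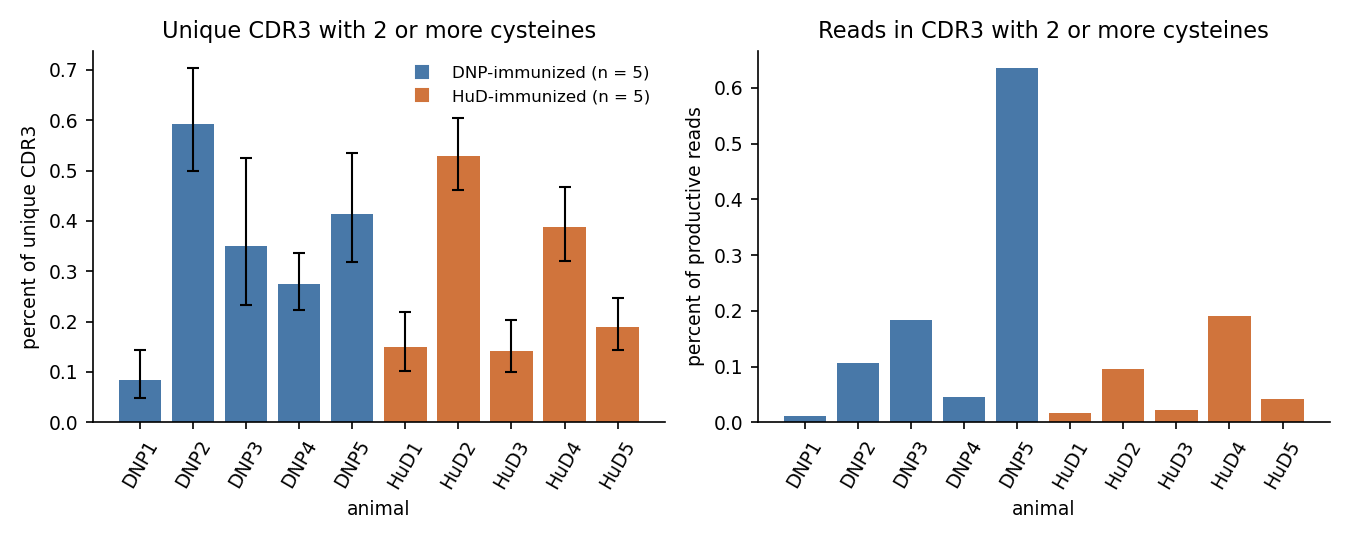
Share of CDR3 with 2 or more cysteines per animal, as percent of unique CDR3 (left, bars with 95% Wilson intervals that cover counting error only) and as percent of productive reads (right). DNP2 (0.592%) and HuD2 (0.528%) are highest among unique CDR3, whereas DNP5 (0.635%) is highest by reads.

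By reads the picture was set by single clones. The share of productive reads was 0.0115%, 0.107%, 0.183%, 0.0450% and 0.635% in DNP1 to DNP5, and 0.0173%, 0.0948%, 0.0214%, 0.191% and 0.0415% in HuD1 to HuD5. The high value of DNP5 came largely from ARSTDCGCNWDY, which made 69.4% of its 582 reads. The means were 0.196% ± 0.254 for DNP and 0.0732% ± 0.0728 for HuD (SD, n = 5 each), and did not differ beyond the spread (exact permutation, two-sided, p = 0.389).

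Nearly all pairs of cysteines were close together. Of the 665 CDR3 with exactly 2 cysteines, 598 (89.9%) had 0 to 5 residues between them, and the median was 2 residues. These CDR3 had a median length of 13 residues, which limits how far apart their cysteines can lie. The part of length in the spacing was not tested. Counted over all animals, adjacent cysteines were the most frequent arrangement with 144 CDR3, followed by 2 residues between them with 128, 1 with 110 and 3 with 94. This order rests on DNP2 and HuD2, which gave 76 of the 144, and without them 2 residues between came first with 84 CDR3 against 68 with adjacent cysteines. As a mean per animal over all 10, they made 19.9% ± 9.08 and 19.7% ± 10.99 (SD, n = 10). There were 60 CDR3 with 4 residues between them, 62 with 5, of which 32 were in DNP2, and 22 with 6. The widest spacing of 40 residues belonged to a CDR3 of 58 residues in HuD2. Its annotated CDR3 includes residues typical of framework 3, and its second cysteine follows them.

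The most abundant CDR3 at 3 of the 5 most frequent spacings are given to show the arrangements, named by the residues between the cysteines.
0 residues, HuD3: TREDCCASPQGMDA
1 residue, DNP5: ARSTDCGCNWDY
2 residues, HuD4: ARHGYTRYCFDC
They had 3, 404 and 190 reads in this order. The leading CDR3 with 3 residues between, in DNP5, had 60 reads, and that with 5, in DNP2, had 2. Adjacent cysteines were thus represented by few reads. All 144 CDR3 with adjacent cysteines together had 149 reads, at 7.66 copies per read, whereas the 110 with 1 residue between had 523 reads at 2.35 copies and the 128 with 2 residues had 511 reads at 3.15 copies. Among the 203 CDR3 whose reads each had a single copy, adjacent cysteines made 13.8%, 1 residue between made 22.7% and 2 residues made 17.2%.

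The share with adjacent cysteines was 15.4%, 28.1%, 0%, 22.0% and 9.09% of the CDR3 with exactly 2 cysteines in DNP1 to DNP5. It was 30.4%, 24.6%, 35.7%, 21.4% and 10% in HuD1 to HuD5. These rest on few sequences, such as 7 of 23 in HuD1 and 0 of 23 in DNP3. The ranges overlapped, and the means of 24.4% ± 9.76 after HuD and 14.9% ± 10.9 after DNP (SD, n = 5 each) did not differ beyond the spread (exact permutation, two-sided, p = 0.183, adjusted over 3 comparisons of the immunogens p = 0.548).

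**Figure D2:**
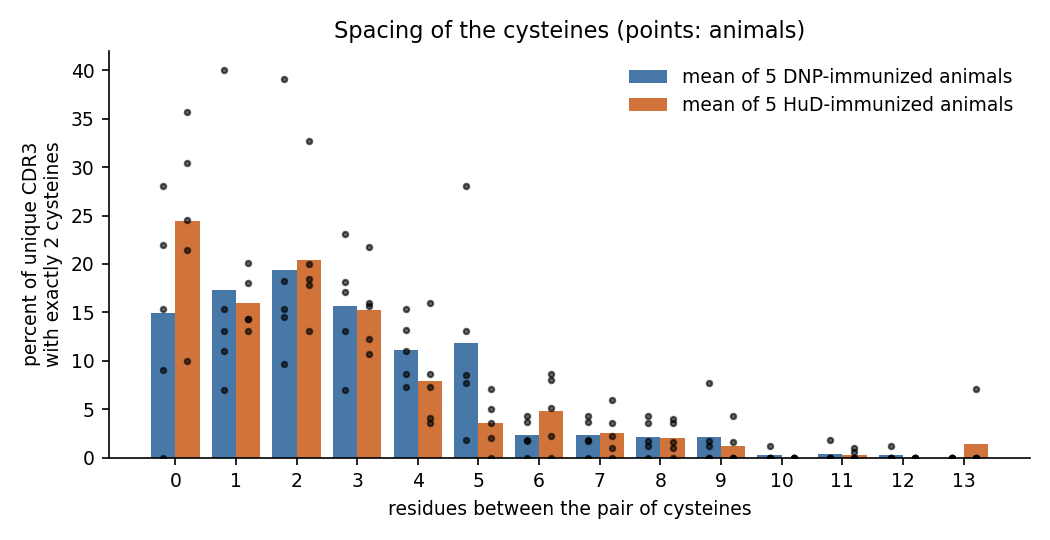
Spacing of the cysteines in CDR3 with exactly 2, as the percent of such unique CDR3 with each number of residues between them. Bars are means over 5 animals, points are animals, and a CDR3 with 40 residues between is not drawn; most lie between 0 and 5 residues, with much spread between animals.

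Cysteines lay mostly toward the end of the loop, which the J segment contributes to. At least 1 was among the last 4 residues in 554 of 735 CDR3 (75.4%), and both of a pair were there in 195. The last residue itself was cysteine in 257 CDR3 (35.0%) and the fourth from the end in 255 (34.7%). Only 1 of the 735 had a cysteine at the first position and 4 at the second, where alanine and arginine are usual. As a share of all cysteines in the members, the last residue held 16.6% and the fourth from the end 16.5%, against 18.7% and 18.0% of the single cysteines of the 10433 CDR3 with exactly 1. The third position from the start held 2.91% against 7.89%. These shares were not tested.

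Each rat J segment ends the CDR3 in a recognizable way. In CDR3 without cysteine the most frequent last 4 residues, taken position by position, were YFDF for IGHJ1, YFDY for IGHJ2, WFAY for IGHJ3 and VMDA for IGHJ4. The first of these 4 was present in only 38.1% of CDR3 with IGHJ2 and 49.9% with IGHJ3. The most frequent residue is called usual here. Of 760 cysteines in these positions, 335 (44.1%) stood where tyrosine is usual, 217 (28.6%) where phenylalanine is usual and 132 (17.4%) where tryptophan is usual. The last of these is the first residue of the IGHJ3 ending, where 132 of 213 CDR3 had a cysteine. Tyrosine, phenylalanine and tryptophan fill most positions of the IGHJ1, IGHJ2 and IGHJ3 endings. The shares were not compared with how often each residue is usual there. A cysteine within the last 4 residues was present in 88.3% of the members with IGHJ3, 77.6% with IGHJ2, 65.1% with IGHJ1 and 20% with IGHJ4.

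IGHJ4, whose usual ending has none of these 3 residues, was used less by CDR3 with 2 or more cysteines than by those without. The part of the ending in this was not tested. Its share was 15.4%, 1.55%, 4.35%, 9.09% and 14.04% in DNP1 to DNP5 and 11.5%, 3.33%, 20.7%, 3.70% and 7.69% in HuD1 to HuD5. The mean was 9.14% ± 6.22, against 16.7% ± 3.42 in CDR3 without cysteine and 10.9% ± 3.88 in those with exactly 1 (SD, n = 10). It was lower than without cysteine in 9 of 10 animals, HuD3 being the exception (exact sign-flip permutation, two-sided, p = 0.00586, adjusted over 4 IGHJ genes p = 0.0234). Against CDR3 with exactly 1 cysteine no IGHJ gene was called. Without DNP2 and HuD2 the adjusted p no longer passed 0.05, and likewise with reads of 1 copy. IGHJ2 made 53.4% ± 17.2 of the members and 51.4% of the CDR3 without cysteine, IGHJ3 24.3% ± 15.5 and 20.8%, and IGHJ1 13.2% ± 6.53 and 11.1%. None of these 3 differed beyond the spread, with adjusted p of 0.717, 0.685 and 0.685 (exact permutation). Single libraries stood far apart here, with IGHJ2 in 78.3% of the CDR3 of DNP2 and IGHJ3 in 51.9% of those of HuD4.

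Cysteine-rich CDR3 were longer. The mean length per animal was 13.5 ± 0.845 residues with 2 or more cysteines, ranging from 12.3 in DNP1 to 14.9 in DNP3 with a median of 13.5. It was 12.04 ± 0.308 residues without cysteine and 12.7 ± 0.436 with exactly 1 (SD, n = 10). In all 10 animals the difference from CDR3 without cysteine was positive, by 1.49 residues on average (exact sign-flip permutation, two-sided, p = 0.00195, the smallest this design allows, adjusted over 4 measures p = 0.00391). Exactly 1 cysteine gave 0.672 residues more than none, also in all 10 animals (exact sign-flip permutation, p = 0.00195). The difference between 2 or more and exactly 1 was 0.815 residues (exact permutation, p = 0.00391). A longer loop has more positions that can hold a cysteine, so choosing CDR3 by their cysteines in itself favours longer ones. How much of these differences follows from this was not tested. With reads of 1 copy only the difference from none was 2.22 residues, and without DNP2 and HuD2 it was 1.40. The value of 2.22 includes the longest CDR3, described below, which had 1 copy each. They lie in DNP2 and HuD2, where the mean length with 1 copy was 17.4 and 16.3 residues. In the other animals it was 12.6 to 14.9.

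**Figure D3:**
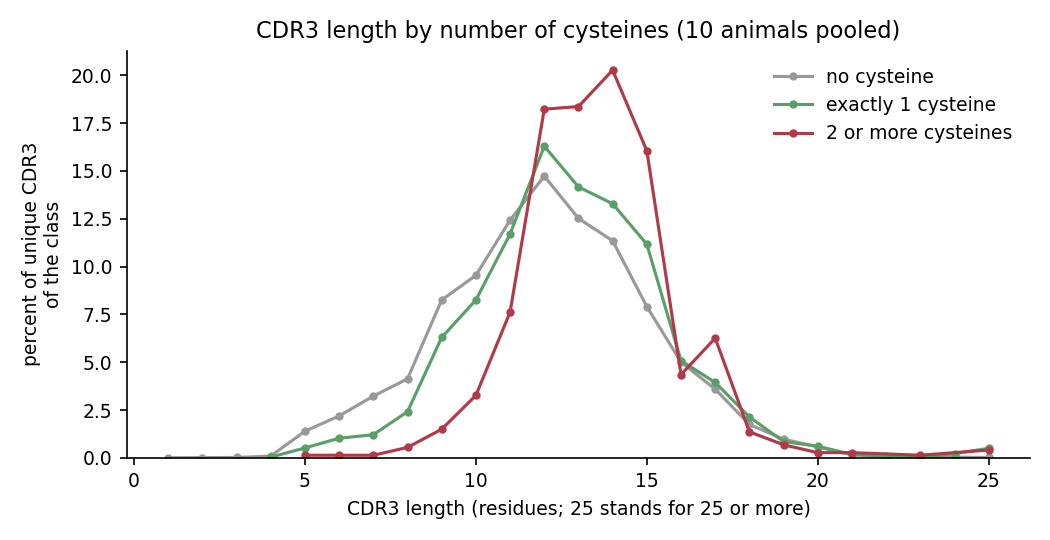
Length of unique CDR3 with 2 or more cysteines, exactly 1 and none, as percent of each class over the 10 animals together (25 stands for 25 or more residues). The curve for 2 or more cysteines lies to the right, with a mean per animal of 13.5 residues against 12.04 without cysteine.

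The share of CDR3 with 2 or more cysteines among all unique CDR3 followed the same order. It was 0.0413% ± 0.0346 for loops of up to 9 residues, 0.251% ± 0.176 for 10 to 12 and 0.465% ± 0.384 for 13 to 15, but 0.425% ± 0.382 for 16 or more (SD, n = 10). The last 2 classes overlapped broadly. The longest CDR3 were 40, 53 and 58 residues long, and each of these 3 was a single read with a single copy. The one of 53 residues, in DNP2, had 4 cysteines, but its annotated CDR3 includes residues typical of framework 4 and the constant region. The one of 40 residues, also in DNP2, includes residues typical of the constant region and of framework 3. Their cysteines need therefore not all lie in the loop.

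Few CDR3 with 2 or more cysteines were expanded. Of the 735, 693 (94.3%) were seen in a single read, 42 in 2 or more and 11 in 10 or more. The percent with at least 2 reads was 15.4, 2.33, 30.4, 2.27 and 15.8 in DNP1 to DNP5 and 3.85, 1.43, 13.8, 5.56 and 9.62 in HuD1 to HuD5. The mean of 10.04% ± 9.09 was below the 25.4% ± 6.07 of CDR3 without cysteine (SD, n = 10). It was lower in 10 of 10 animals, by 15.3 percentage points (exact sign-flip permutation, two-sided, p = 0.00195, adjusted p = 0.00391). With a reference weighted to the same lengths the difference was -15.6 points. With reads of 1 copy only, HuD4 went the other way, at 23.8% against 20.1% without cysteine. There HuD3 and HuD5 were close, at 25% and 23.5%, each against 25.8%, and the other animals stayed lower. CDR3 with exactly 1 cysteine lay between, at 14.7% ± 5.06, and those with 2 or more were 4.61 points lower than these (exact permutation, p = 0.0254).

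The mean number of reads per CDR3 differed in the same direction, though 1 animal went the other way. It was 1.23, 1.02, 4.83, 1.33 and 10.2 in DNP1 to DNP5 and 1.04, 1.01, 1.24, 3.26 and 1.65 in HuD1 to HuD5. CDR3 without cysteine had 5.82 to 9.52 reads. The mean log2 ratio was -2.02 ± 1.17 (SD, n = 10), and 9 of 10 animals were lower, with DNP5 at 0.59 (exact sign-flip permutation, two-sided, p = 0.00391, adjusted p = 0.00521). In place of reads, sequenced copies gave a log2 ratio of -0.87 (exact permutation, p = 0.0586), and against CDR3 with exactly 1 cysteine the ratio in reads was -0.79 (exact permutation, p = 0.0742).

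**Figure D4:**
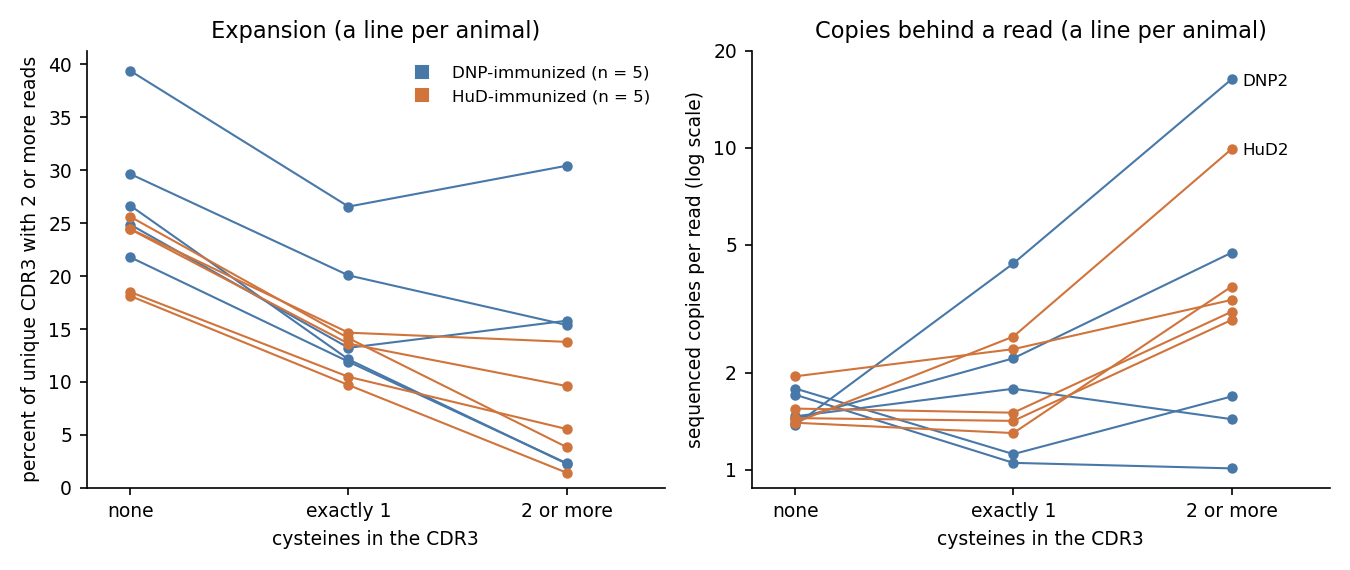
Percent of unique CDR3 with 2 or more reads (left) and sequenced copies per read on a log scale (right) by number of cysteines, with a line for each animal. Expansion is lower with 2 or more cysteines than without in all 10 animals, while copies per read reach 16.3 in DNP2 and 9.90 in HuD2.

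A few clones held most of the reads. CDR3 of an animal that differ at a single residue were joined into families, which gave 672 families, of which 652 had 1 CDR3. CDR3 not linked by single-residue steps stayed apart, so the number of families is not a number of unrelated clones. In DNP2 many members were similar loops of 15 residues. Its most abundant one was among them, with IGHD1-11, IGHJ2 and 5 residues between its cysteines. How many of these loops share an origin was not tested. The 5 largest had 893 of the 1672 reads (53.4%), and the largest was that of ARSTDCGCNWDY in DNP5, with IGHV3-3, IGHD1-9 and IGHJ2, which had 15 CDR3 and 421 reads. This was 0.459% of the productive reads of the animal, and 1.33 copies stood behind each read. Relatives that had lost a cysteine and kept only 1 could not enter a family, so the families do not show how often a pair was kept.

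The second family, around ARHGYTRYCFDC in HuD4, had 6 CDR3 and 246 reads. Its leading CDR3 was assigned to 14 IGHV genes, with IGHV5-46 the most frequent at 60 of 190 reads, so that its IGHV gene is uncertain. The third, also in DNP5, had 108 reads in 6 CDR3 with IGHV5-22, IGHD4-4 and IGHJ4. Its 3 most abundant CDR3 had 60, 25 and 20 reads.

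The families of the leading CDR3 of DNP3 and of DNP4, both 17 residues long, had 87 reads in 8 CDR3 and 31 reads in 3 CDR3. Both were assigned to IGHD1-12 and IGHJ2 and have 2 residues between their cysteines. A family of 5 CDR3 in DNP2, led by its most abundant one, was of another kind, with 7 reads and 244 copies, or 34.9 copies per read.

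CDR3 with 3 and 4 cysteines were found as single reads, many of them with several copies. All 62 with 3 cysteines and all 8 with 4 had 1 read each. Reads with 10 or more copies made 1.19% of the reads without cysteine, 4.23% with exactly 1, 12.3% with 2, 30.6% with 3 and 50% with 4. These shares are over the pooled libraries, of which DNP2 and HuD2 gave 15 and 31 of these 70 CDR3. The 8 sequences with 4 cysteines include the longest CDR3 of DNP2, whose annotation reaches into other parts of the chain. Of the 8, 3 are shown with their copies to let their crowding be seen.
37 copies, HuD2: AREGYGDCCCDC
15 copies, HuD2: ARDGTKDSSCCFCC
12 copies, DNP4: ARPSGYGCYCFCC
In each of these 3 the cysteines all lay within the last 6 residues.

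Among CDR3 seen in a single read, 26.4% of those with 2 or more cysteines had 1 copy, against 61.7% with exactly 1 cysteine and 86.5% with none. At least 10 copies were behind 17.6% ± 19.2 of the single reads with 2 or more cysteines and 1.68% ± 1.44 of those without (SD, n = 10). This was higher in 8 of 10 animals, reaching 57.9% in DNP2, while in DNP1 and DNP3 it was 0% (exact sign-flip permutation, two-sided, p = 0.00781). The other way round, 0.113% ± 0.195 of the reads with 1 copy and 1.03% ± 1.56 of those with 10 or more had 2 or more cysteines, which was higher in 7 of 10 animals and did not pass 0.05 (exact sign-flip permutation, p = 0.0566).

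Some CDR3 were close relatives of abundant ones. In 69 of the 735, another CDR3 of the animal with the same length and at least 10 times the reads differed at a single residue. In 29 cases this neighbour also had 2 or more cysteines and in 40 it had 1. A CDR3 without cysteine could not be such a neighbour, since it would differ at more than a single residue. For the 42 whose neighbour had fewer cysteines, the residue in the neighbour was phenylalanine in 21, tyrosine in 10, serine and tryptophan in 4 each, glycine in 2 and arginine in 1. An example is ARWYSSGFCCDY in DNP5 with 1 read, next to ARWYSSGFCFDY with 375. For 526 CDR3, the nearest one with 10 times the reads differed at 5 or more residues.

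The percent with such a neighbour was 23.1, 5.43, 30.4, 9.09 and 40.4 in DNP1 to DNP5 and 3.85, 5.24, 3.45, 4.63 and 5.77 in HuD1 to HuD5. The mean of 13.1% ± 13.3 did not differ beyond the spread from the 19.95% ± 2.39 of CDR3 without cysteine (SD, n = 10; exact sign-flip permutation, two-sided, p = 0.152). Without DNP5, where the family of ARSTDCGCNWDY lies, the difference was -10.3 points (exact permutation, p = 0.0156). A neighbour of a member must hold at least 1 cysteine, as few CDR3 do. A CDR3 without cysteine can have neighbours with none or 1. These differences therefore cannot be read as a property of the members. With exactly 1 cysteine the percent was 31.1 ± 6.02, higher than without cysteine in 10 of 10 animals (exact sign-flip permutation, p = 0.00195).

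The IGHV genes of these CDR3 were largely those of the repertoire as a whole. Genes of the IGHV5 subgroup, the largest of the rat, made 78.1% ± 19.7 of the members and 72.5% ± 4.27 of the CDR3 without cysteine, and those of IGHV2 12.1% ± 14.7 and 14.2% ± 2.65 (SD, n = 10). The 10 most used genes were IGHV5-20 with a mean of 17.4% of the members, IGHV5-7 with 11.7%, IGHV5-25 with 9.92%, IGHV5-29 with 9.13%, IGHV5S13 with 8.76%, IGHV5-31 with 6.31%, IGHV5-22 with 6.07%, IGHV2-6 with 4.35%, IGHV3-3 with 3.18% and IGHV4-2 with 2.44%. The value of IGHV2-6 came from DNP3 alone, the animal of the largest family with this gene. That of IGHV3-3 came largely from the family of ARSTDCGCNWDY, since without DNP5 the mean was 0.609%.

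Of 88 IGHV genes tested with edgeR's quasi-likelihood test, 8 (9.09%) had an adjusted p under 0.05, of which 1 (1.14%) was higher and 7 (7.95%) lower in CDR3 with 2 or more cysteines. IGHV5-20 rose from 8.99% ± 2.20 to 17.4% ± 11.3 (SD, n = 10), a log2 fold change of 1.02 (SE 0.298, edgeR adjusted p = 0.0305), and was higher in 8 of 10 animals. Its call ended, and its direction turned in 2 of 3 cases, under other settings, with a log2 fold change of 0.09 with TMM factors in edgeR, -0.78 in DESeq2 and -0.47 with reads of 1 copy only. TMM factors shifted the median of all IGHV genes by -0.271 on the log2 scale and gave 0 genes higher and 24 lower, and DESeq2 gave 0 and 26. IGHV3-1 fell from 4.15% ± 2.25 to 1.16% ± 1.36, a log2 fold change of -1.84 (SE 0.468, edgeR adjusted p = 0.0219), and was lower in 9 of 10 animals.

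IGHV5-58 and IGHV5S10 were called lower as well, at 3 and 8 of the 735 CDR3 against 1.89% and 3.25% of those without cysteine on average. The other 4 were IGHV2-30, IGHV2-32, IGHV2-43 and IGHV2-47, with no member in any animal. Against the 3 counts over all animals that a count of 0 allows, they were at least 2.53-fold, 2.33-fold, 2.28-fold and 2.33-fold lower. All 8 calls rest on a few libraries. No gene passed without HuD2, without HuD4, without both DNP2 and HuD2, or with reads of 1 copy only. In the comparison of HuD with DNP within the members, none of 7 genes tested with edgeR (0%) passed, nor any in DESeq2 (0 genes), and 2 had an unadjusted p under 0.05 in edgeR. These were IGHV5-29, with means of 16.01% ± 7.47 in HuD and 2.24% ± 4.41 in DNP animals, and IGHV5-22, with 3.18% ± 2.63 and 8.97% ± 6.58 (SD, n = 5 each, edgeR adjusted p = 0.101 for both).

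IGHD1-12 was the clearest difference in gene use. This D segment can give the tyrosine-rich stretch YYDG in the middle of the loop. Of the CDR3 with 2 or more cysteines and a named D gene it made 15.4%, 25.5%, 43.5%, 29.1% and 15.8% in DNP1 to DNP5 and 34.6%, 32.1%, 24.1%, 20.6% and 32.6% in HuD1 to HuD5. Without cysteine its share was 8.61% to 14.01%. Every animal was higher, and no value with 2 or more cysteines fell into the range of the CDR3 without. The lowest value, in DNP1, was 2 of 13 CDR3, and the highest, in DNP3, was 10 of 23. In DNP3 the family of the leading CDR3, described above, was assigned to IGHD1-12. Related CDR3 of a family were counted separately, also in the edgeR test. The means were 27.3% ± 8.83 and 11.9% ± 1.62 (SD, n = 10), a log2 fold change of 1.16 (SE 0.165, edgeR adjusted p = 3.86e-10).

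**Figure D5:**
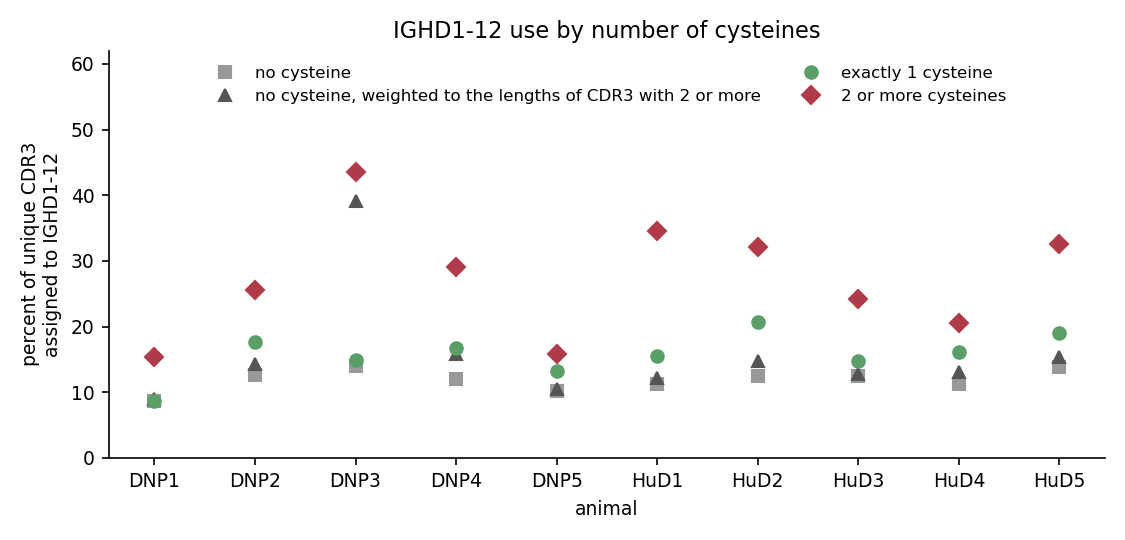
Percent of unique CDR3 with a named D gene that were assigned to IGHD1-12, per animal and number of cysteines, with CDR3 without cysteine also weighted to the lengths of those with 2 or more. In each of the 10 animals the value with 2 or more cysteines is the highest of the 4.

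The difference in IGHD1-12 held at equal length. Weighted to the lengths of the CDR3 with 2 or more cysteines, the CDR3 without cysteine had a share of 15.7% ± 8.53, and the difference of 11.6 percentage points was positive in 10 of 10 animals (exact sign-flip permutation, two-sided, p = 0.00195). In DNP3 it shrank to 43.5% against 39.2%. CDR3 with exactly 1 cysteine had 15.7% ± 3.30, which was above those without by 3.87 points and below those with 2 or more by 11.6 points, in 10 of 10 animals each time (exact sign-flip permutation, p = 0.00195 for both). With reads of 1 copy the log2 fold change was 0.87 (edgeR adjusted p = 0.0344) and without DNP2 and HuD2 it was 1.15 (edgeR adjusted p = 9.7e-10). TMM factors shifted the median of all IGHD genes by -0.417 and DESeq2 by -0.59 on the log2 scale, and relative to that shift IGHD1-12 was at 1.12 and 1.09. Of the 181 CDR3 with IGHD1-12, 172 were single reads, and among CDR3 with at least 2 reads the log2 fold change of 0.86 did not pass (edgeR adjusted p = 0.581). YYDG was present in 12.2% of the 181, against 25.04% of the CDR3 with IGHD1-12 and no cysteine.

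Other D genes changed less firmly. Of 33 tested with edgeR, 9 (27.3%) passed, 3 of them higher (9.09%) and 6 lower (18.2%), against 1 and 9 with TMM factors and 2 and 11 in DESeq2. IGHD5-1 fell from 4.43% ± 0.782 to 0.398% ± 0.665 (SD, n = 10), a log2 fold change of -3.24 (SE 0.674, edgeR adjusted p = 4.01e-05), with 10 of 10 animals lower. IGHD4-3 fell from 6.56% to 2.84% and IGHD1-4 from 6.67% to 2.97%, with edgeR adjusted p of 0.00844 and 0.0314. IGHD2-1, IGHD3-7 and IGHD3-8 had no member and were at least 1.19-fold, 1.33-fold and 2.23-fold lower. IGHD1-8 and IGHD4-4 were called higher (log2 fold changes of 1.42 and 1.32, edgeR adjusted p = 0.0314 and 0.045) but were so in only 6 of 10 animals each. The other much-used D genes, namely IGHD1-11 at 11.97%, IGHD1-2 at 7.74%, IGHD1-1 at 7.07%, IGHD1-9 at 6.47%, IGHD1-6 at 6.24%, IGHD1-7 at 5.75% and IGHD3-1 at 3.21% of the members, did not pass. Single animals raised the means of IGHD1-11 and IGHD1-9, with highest values of 41.5% and 24.6% against medians of 6.96% and 2.81%. Without DNP2 and HuD2 only IGHD1-12, IGHD5-1 and IGHD4-4 still passed, and without HuD2 alone only IGHD1-12 and IGHD5-1. The call of IGHD4-4 ended in 8 of 10 runs with an animal left out. The third family described above, in DNP5, was assigned to IGHD4-4. With reads of 1 copy only, 2 genes were called, and of the genes named here only IGHD1-12 was among them. In DNP2, 27.1% of the CDR3 with 2 or more cysteines had no named D gene, against 2.17% of its CDR3 without cysteine, and in HuD2 these were 12.4% and 2.14%.

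Apart from the cysteines, the loops also differed in composition. Among the other residues, aspartate made 12.6% ± 1.76 against 9.83% ± 0.228 in CDR3 without cysteine (SD, n = 10), asparagine 4.96% ± 1.65 against 2.87% ± 0.147, and arginine 9.46% ± 1.02 against 8.62% ± 0.391. These were higher in 10, 9 and 9 of 10 animals (exact sign-flip permutation, adjusted over 19 residues, p = 0.0124, 0.0247 and 0.0265). Alanine, leucine, methionine and threonine were lower, with differences of -1.76, -1.34, -0.998 and -2.19 percentage points and adjusted p of 0.0124, 0.0124, 0.0186 and 0.0223 (exact permutation). Tyrosine, at 20.2% ± 3.52 against 17.5% ± 0.782, did not pass (exact permutation, adjusted p = 0.0701). These comparisons used all reads. Over all CDR3, aspartate and asparagine were also higher in reads with 10 or more copies than in reads with 1. Leucine, methionine and threonine were also lower there, while alanine and arginine did not pass. The parts of copies and of IGHJ use in the composition were not tested.

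Hardly any of these CDR3 were shared. Of the 734 distinct CDR3, 1 was found in more than 1 animal, the leading CDR3 of DNP3, with 77 reads in DNP3 and 11 in HuD5. In DNP3, 71 of the 77 reads were assigned to IGHV2-6 and the rest to other IGHV2 genes. In HuD5 the 11 reads were spread over 8 IGHV genes, with 3 reads for IGHV5-29 as the most frequent, so its IGHV gene there is uncertain. Whether the same loop stood beside different V genes was not tested. Both were assigned to IGHD1-12 and IGHJ2, and all 11 reads of HuD5 had a single copy. As a percent of unique CDR3, 0.272% with 2 or more cysteines, 1.08% with exactly 1 and 6.06% without were also found in another animal. Among single reads these were 0 of 693, 0.813% and 4.86%. With 1 shared CDR3, found after DNP and after HuD, sharing within an immunogen could not be compared with sharing across.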

How the data were processed

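Each deposited file lists the collapsed heavy chain sequences of 1 animal. The tag used for collapsing included a section of the CDR3, so that sequences differing there stay apart. PEAR merging, MIGEC tag collapse and High-VQuest annotation were done by the authors, with versions not given in the sources used here, and a count of sequenced copies was deposited beside each sequence. Collapsing at a minimum of 1 copy keeps sequences that no second copy checks. Each sequence was 1 read here, and reads of an animal with the same CDR3 were 1 unique CDR3 with its most frequent genes. Where a read listed more than 1 IGHV gene (14.1% of reads), the first listed was taken. The smallest library had 60647 productive reads and the largest 259834.

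Within-animal differences were given an exact sign-flip permutation test, n = 10 (smallest p 0.00195, two-sided) and between immunogens over all sets of 5 animals (smallest p 0.00794), with Benjamini-Hochberg adjustment in each family. Gene use was tested on numbers of unique CDR3 with edgeR 4.0.16 in R 4.3.3, using library totals without TMM factors and an animal term, because on simulated data TMM factors made more false calls in these sparse counts. Library totals also made some false calls there once genes were changed, and missed most of the changed genes. DESeq2 1.42.0 was an alternative. Other steps used scipy 1.17.1, numpy 2.4.6, pandas 2.3.3 and matplotlib 3.10.9 under Python 3.11.15. Each animal was left out in turn, and thresholds, references, scalings and copies were varied. Intervals and limits cover counting error only.

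Members and lists were chosen with earlier results of these data known. Named genes were the 10 most used IGHV and IGHD genes and up to 10 with the largest change among those past an adjusted p of 0.05 in the same direction in 8 of 10 animals, with all IGHJ genes. Named CDR3 were the most abundant of each animal, those in most animals, the 5 with most cysteines, and the leading one at each of the 5 most frequent spacings. IGHD1-8, IGHD4-4 and the members of families were named after their values were seen.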

Additional observations from a re-analysis of the deposited data

Results flagged for a closer look

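Values far from the other 4 animals of their immunogen were looked for in 24 groups of 5 with Dixon's 95% limit, which chance alone passes in about 1 of 20 groups, and 5 were found. DNP5 had 0.635% of its productive reads in CDR3 with 2 or more cysteines, against 0.0115% to 0.183% in the other DNP animals. HuD4 had a mean of 3.26 reads per such CDR3, against 1.01 to 1.65 in the other HuD animals. The sequenced copies per read were 16.3 in DNP2, against 1.01 to 4.72, and 9.90 in HuD2, against 2.92 to 3.70. IGHJ3 made 29.5% of the CDR3 of this kind in DNP4, against 7.69% to 13.04% in the other DNP animals.

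Of 5 within-animal differences compared between the immunogens, 1 gave a p under 0.05 before adjustment. The percent with a neighbour of 10 times the reads, less that of CDR3 without cysteine, was 1.40 points in the DNP animals and -15.0 in the HuD animals, a difference of -16.4 points (exact permutation, two-sided, p = 0.0317).

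Sequences called unproductive, which enter no comparison above, held CDR3 with 2 or more cysteines more often than productive ones. Where their CDR3 had only the 20 amino acids, 1090 of 49565 unique CDR3 met the rule, with a mean of 2.08% ± 0.3999 per animal (SD, n = 10), from 1.4996% in DNP3 to 2.597% in DNP2. This was higher than among productive CDR3 in 10 of 10 animals, by 1.77 percentage points (exact sign-flip permutation, two-sided, p = 0.00195).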

How the results depend on the processing

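The differences in length and in the percent with at least 2 reads kept their direction and passed under every alternative run. With reads of 1 copy only the HuD minus DNP difference in the percent of unique CDR3 was -0.122 points, and with at least 2 copies 0.148. The log2 ratio of mean reads was -0.79 against exactly 1 cysteine and -0.87 in copies. The difference in the percent with a neighbour was 3.78 points for CDR3 with at least 2 reads, -18.0 against exactly 1 cysteine, 5.36 with reads of 1 copy, -13.5 with at least 2 copies, and -10.3 to -5.73 with an animal left out, the lowest without DNP5 (exact permutation, p = 0.0156). Copies per read differed by 1.15 without DNP2 and HuD2.

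The number of IGHJ genes called was 0 for CDR3 with at least 2 reads, against exactly 1 cysteine, without DNP2 and HuD2, with reads of 1 copy and with at least 2 copies. IGHJ1 differed by -3.42 points for CDR3 with at least 2 reads. IGHJ2 differed by -1.69 without CDR3 that had a neighbour, -1.81 against exactly 1 cysteine, and -0.71 to 4.76 with an animal left out. IGHJ3 differed by -3.37 for CDR3 with at least 2 reads and -3.78 with reads of 1 copy.

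IGHV calls numbered 0 for CDR3 with at least 2 reads, 3 in reads, 26 in DESeq2, 24 with TMM, 0 without DNP2 and HuD2, 0 with reads of 1 copy, and 0 to 10 with an animal left out (0 without HuD2 and without HuD4). IGHV5-20 had log2 fold changes of -0.78 in DESeq2 and -0.47 with reads of 1 copy, and IGHV5-58, IGHV5S10 and IGHD1-8 had 0.30, 1.18 and -7.46 for CDR3 with at least 2 reads. IGHD calls numbered 0 for CDR3 with at least 2 reads, 3 without DNP2 and HuD2, 2 with reads of 1 copy, and 2 to 10 with an animal left out (4 without DNP1, 3 without DNP4, 2 without HuD2, 5 without HuD4, 4 without HuD5). Between immunogens, IGHV calls numbered 1 in reads, 2 without a filter, 1 without DNP2 and HuD2, and 0 to 2 with an animal left out (2 without DNP2). That comparison could not be fitted with reads of 1 copy. The causes of these changes were not tested. Settings on copies, on DNP2 with HuD2, and TMM were chosen after seeing the data.

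Animals of the same number share only that number, and correlations of their IGHV use were -0.0162 to 0.291 for CDR3 with 2 or more cysteines and -0.183 to 0.334 for those without. With a replicate block the HuD minus DNP differences were -0.0632 points in unique CDR3 (exact permutation, p = 0.4375), -0.123 in reads (exact permutation, p = 0.375) and 9.53 in adjacent cysteines (exact permutation, p = 0.375), with 0 IGHV calls, and no call changed. With 13 to 210 members per animal, small shares rest on few CDR3.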

Other observations

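The residues of CDR3 in reads with many copies were compared with those in reads with 1 copy, after seeing the copies behind the cysteine-rich loops. Cysteine itself is left aside, since its share restates that observation. Over unique CDR3, glutamate made 3.63% ± 1.71 of the residues in reads with 10 or more copies and 1.82% ± 0.184 in reads with 1 copy (SD, n = 10), higher in 8 of 10 animals (exact sign-flip permutation, two-sided, adjusted over 20 residues p = 0.0293). Aspartate made 13.6% ± 3.92 and 9.63% ± 0.213, higher in 9 of 10 animals (exact sign-flip permutation, adjusted p = 0.0279). Methionine, leucine and threonine had ratios of 0.304, 0.378 and 0.430 and were lower in 10 of 10 animals (exact sign-flip permutation, adjusted p = 0.013 for each).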
